A study of Sus scrofa with 24 samples.

Results

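The cell cycle and DNA replication genes described here are a list of 44 genes that drive or mark cell division, followed in tissue of pig offspring over 4 ages. A gene was measured where a probe set of the array carries its symbol alone, and the probe set with the highest mean log2 signal stood for it. This gave 30 of the 44, among 6765 genes and 23935 probe sets tested. By role, 3 of 6 genes of G1 control, 11 of 16 genes of S phase and 16 of 22 genes of mitosis were measured. CCND1, CCND3, CDK4, CCNE2, CDC6, MCM6, MCM7, TK1, CDK1, MKI67, BUB1, BUB1B, PRC1 and KIF11 had no such probe set and were not analysed here.

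All samples came from offspring of German Landrace gilts, a pig breed, whose gestation diet was the high protein [HP] diet. No other diet group is compared here. The fetuses were taken before term, so a difference between 94 dpc and 1 dpn spans late gestation and birth. The 4 stages of 6 animals each were fetuses at 94 days post conception (94 dpc) and pigs at 1, 28 and 188 days post natum (dpn). Offspring of 3 gilts were taken per stage, and which animals shared a mother, and their sex, are not given in the labels. The p-values treat the 6 animals of a stage as independent, although some must share a mother, and may be too small. Total RNA was read on Affymetrix Porcine Genome arrays, 1 array per animal, and all levels below are the scaled signal intensities of the deposited values. A level of 1 gene is compared only with the level of the same gene, since probe sets differ in their response.

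A dividing cell passes through G1, copies its DNA in S phase and separates the chromosomes in mitosis. Cyclins and the kinases they activate drive these steps, CDK inhibitors hold them back, MCM proteins unwind the DNA at licensed origins, and the spindle checkpoint delays chromosome separation until all chromosomes are attached. In skeletal muscle the nuclei inside the fibres no longer divide, while myoblasts, the satellite cells that follow them, and cells of vessels and connective tissue do.

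The sample labels name liver and the series title names muscle. Of 8 skeletal muscle markers 6 were on the array, and the 6 stage means lay above the Tag level in every stage, with a summed signal of 159567 to 223535 in fetuses, 263997 to 346372 in newborns, 329882 to 436796 in the 28 dpn pigs and 282225 to 386642 in the 188 dpn pigs. The Tag level, 74.7, is the 95th percentile of 17 control probe sets for which no target is expected in pig RNA, and a signal under it is read here as not above background. The summed signal of 8 hepatocyte markers was 7767 to 55994 in fetuses, 2703 to 27175 in newborns, 2978 to 6744 in the 28 dpn pigs and 1206 to 166597 in the 188 dpn pigs, and albumin (ALB) was high in animals 1, 2 and 3 of 188 dpn. The 5′ to 3′ signal ratio of the control transcript EF1A, which drops when RNA is degraded or copied short, was 0.988 to 1.05 in fetuses, 0.638 to 0.696 in the 28 dpn pigs and 0.512 to 0.656 in the 188 dpn pigs. Among newborns, animals 1, 2 and 3 had ratios of 0.135, 0.105 and 0.0963 against 0.703, 0.67 and 0.674 for animals 4, 5 and 6. The first 3 arrays stand apart by this ratio, and low 5′ signal below refers to it. For the control GAPDH the ratios were 0.424, 0.581 and 0.616 against 0.907, 0.996 and 0.946. The 28 dpn pigs had 0.614 to 0.736, so by GAPDH animal 3 lay within the range of older pigs and animal 2 near it. The mean signal of 9 bacterial hybridisation control probe sets, which are added to each sample, was 2240.4 to 3452 in fetuses, 5884 to 9144 in newborns, 3749 to 5534 in the 28 dpn pigs and 3875 to 5068 in the 188 dpn pigs. The part of these controls and of RNA quality in the results below was not tested.

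Most division genes had their highest level before birth, and the medians of both S phase and mitosis genes were low in the newborn and higher at 28 dpn. The S phase median was lowest at 188 dpn, while the order of the mitosis medians at 1 and 188 dpn rests on means under the Tag level. Of the 27 S phase and mitosis genes measured, 26 had their highest stage mean at 94 dpc, the exception being MCM4. MCM4 and KIF20A, which is among the 26, stayed under the Tag level in all 4 stage means. Over the 10 S phase genes above the Tag level at 94 dpc, the stage mean had a median of 34.5% of the fetal mean at 1 dpn, 56% at 28 dpn and 19.3% at 188 dpn. Over the 15 mitosis genes above that level the medians were 20.5%, 42.9% and 9.28%. Stage means under the Tag level are included in these medians at their measured value, namely 2, 0 and 6 of the 10 S phase genes and 7, 3 and 12 of the 15 mitosis genes. Whether mitosis genes were lower at 188 than at 1 dpn is therefore not settled. Of all 16 measured, 0 had every pig of 188 dpn below every newborn and 1, MAD2L1, had every one above, against 9.5% and 7.25% of all probe sets. Across all stages, 27 of the 30 genes differed by the F test of limma at an adjusted p of at most 0.05, against 52.3% of all probe sets. The 3 others were CDKN1A (adjusted p = 0.0954), PLK1 (0.17) and KIF20A (0.739). In bulk tissue, fewer dividing cells and less of these RNAs per cell cannot be told apart.

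**Figure D1:**
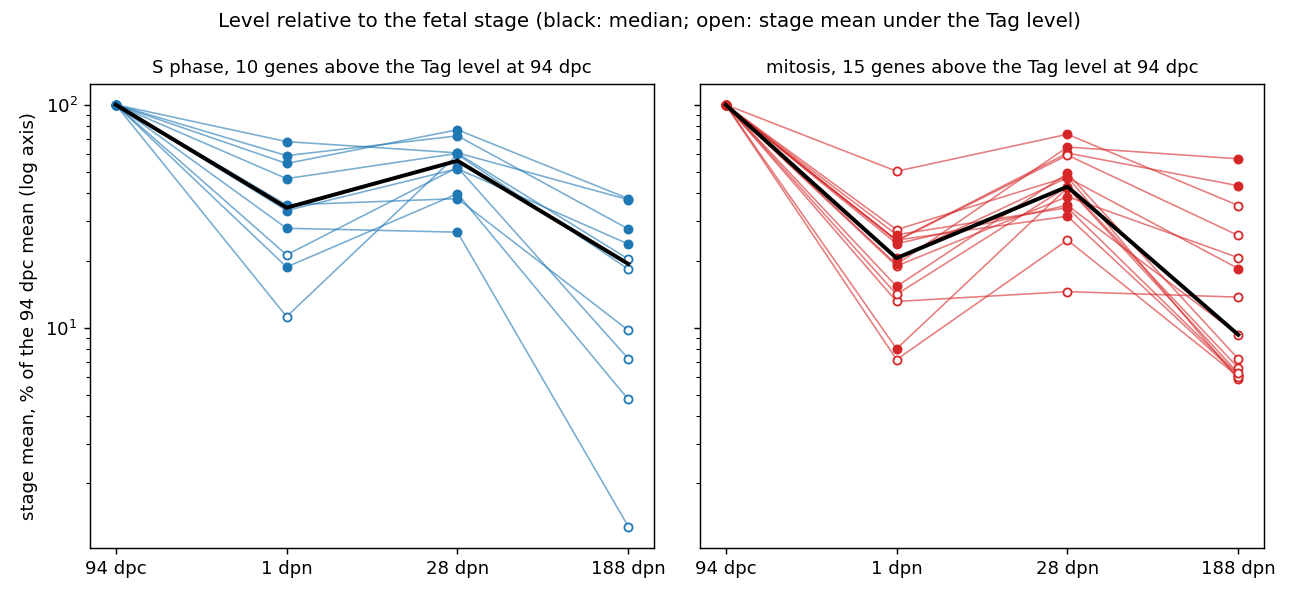
Stage means of each S phase gene (left, 10 genes) and mitosis gene (right, 15 genes) as a percentage of its 94 dpc mean, on a log axis over the 4 stages, with the median in black and open points where the stage mean lies under the Tag level. The medians go from 34.5% to 56% to 19.3% for S phase and from 20.5% to 42.9% to 9.28% for mitosis.

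Of the G1 genes, cyclin D2 (CCND2), a partner of the kinases that start the cycle, was highest before birth and lowest at 188 dpn. CCND2 spanned 2183 to 3237 (median 2453) at 94 dpc, 1032 to 2183 (1451) at 1 dpn, 855 to 1392 (1234) at 28 dpn and 103 to 387 (250.1) at 188 dpn. Every animal of 188 dpn lay below every animal of the other 3 stages, and the highest newborn only reached the lowest fetus. CCND2 was lower at 1 dpn than at 94 dpc (-0.84 ± 0.26, adjusted p = 0.0189) and fell again at 188 dpn (-2.42 ± 0.26, adjusted p = 2.43e-06), where differences are log2, later minus earlier, with the standard error, and adjusted p-values come from limma. The first call was lost without the 3 newborn arrays of low 5′ signal (-0.90, adjusted p = 0.0605) and when arrays were centred on their medians (-0.51, adjusted p = 0.153). Its step between 1 and 28 dpn was -0.27 ± 0.26, adjusted p = 0.529.

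CDKN1B, the CDK inhibitor p27, was the 1 gene of the 30 that was higher at 188 than at 28 dpn. CDKN1B spanned 1019 to 1801 (median 1568) at 94 dpc, 587 to 1459 (1005) at 1 dpn, 1015 to 1274 (1195) at 28 dpn and 1281 to 2126 (1729) at 188 dpn. All 6 animals of 188 dpn lay above all 6 of 28 dpn. It was lower at 1 dpn than at 94 dpc (-0.64 ± 0.20, adjusted p = 0.0159) and higher at 188 than at 28 dpn (0.60 ± 0.20, adjusted p = 0.0413). The later call was lost in 12 of the 24 fits that leave out 1 animal, with adjusted p-values of 0.0502 to 0.0945, and without the 3 arrays of high albumin (0.44, adjusted p = 0.335). The earlier one was lost without the 3 newborn arrays of low 5′ signal (-0.44, adjusted p = 0.141) and when arrays were centred on their medians (-0.31, adjusted p = 0.263).

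CDKN1A, the CDK inhibitor p21, passed no comparison. CDKN1A spanned 3249 to 6413 (median 5825) at 94 dpc, 1691 to 21729.7 (10591) at 1 dpn, 2798 to 5393 (4199) at 28 dpn and 1701 to 6233 (2835) at 188 dpn. The newborns spread widest: animals 1, 2 and 3, the arrays of low 5′ signal, stood at 19386, 12571 and 21729.7, and animals 4, 5 and 6 at 1691, 8612 and 2687. Animal 5 also lay above every fetus. The difference from 94 dpc was 0.56 ± 0.49, adjusted p = 0.422 with all arrays and -0.62, adjusted p = 0.326 without the first 3 animals, so its sign depends on those arrays.

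In S phase, the MCM helicase subunits MCM2, MCM3 and MCM5 were lower at 188 dpn than at both 94 dpc and 28 dpn. MCM2 spanned 469 to 815 (median 622) at 94 dpc, 125 to 372 (224) at 1 dpn, 115 to 356 (245) at 28 dpn and 24.5 to 120.1 (64.4) at 188 dpn. MCM3 ranged over 267 to 423 (median 329) at 94 dpc, 67.4 to 324 (153) at 1 dpn, 108 to 263 (216) at 28 dpn and 52.3 to 90.5 (64.6) at 188 dpn. MCM5 lay at 209.5 to 379.8 (median 342) at 94 dpc, 117 to 249 (195) at 1 dpn, 167 to 334 (238) at 28 dpn and 33.7 to 179 (102) at 188 dpn. MCM2 had every newborn below every fetus and every pig of 188 dpn below every newborn, whereas MCM3 and MCM5 overlapped between 94 dpc and 1 dpn. By 1 dpn MCM2 differed by -1.50 ± 0.35, adjusted p = 0.00249, MCM3 by -1.10 ± 0.29, adjusted p = 0.00504 and MCM5 by -0.76 ± 0.32, adjusted p = 0.0722, so MCM5 did not pass. The MCM3 difference was -0.74, adjusted p = 0.0643 with quantile normalization. That of MCM5 passed in 8 of 37 alternative fits, among them the mean of its 3 probe sets (-1.11, adjusted p = 0.00948). From 28 to 188 dpn MCM2 fell at least 3.16-fold (adjusted p = 0.000525) and MCM3 at least 2.62-fold (adjusted p = 0.000552), where "at least" sets a stage mean above the Tag level against that level when the other stage mean lies under it. MCM5 fell at the same step (-1.39 ± 0.32, adjusted p = 0.00395), and its difference was -0.75, adjusted p = 0.111 without the 3 arrays of high albumin. MCM4, a subunit of the same ring, is a bound only: its 4 stage means, from 23.0 at 94 dpc to 57.4 at 188 dpn, were all under the Tag level.

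PCNA, the sliding clamp of the replication fork, and PCLAF, which binds it, both fell by 1 dpn and again by 188 dpn. PCNA spanned 1313 to 2203 (median 1789) at 94 dpc, 484 to 736 (569) at 1 dpn, 469 to 1155 (978) at 28 dpn and 355 to 485 (412) at 188 dpn. PCLAF ranged over 183 to 988 (median 597) at 94 dpc, 58.3 to 191 (94.9) at 1 dpn, 150.1 to 263 (211) at 28 dpn and 3.32 to 95.9 (38.6) at 188 dpn. No postnatal animal reached the lowest fetus for PCNA. PCNA fell by 1 dpn (-1.58 ± 0.19, adjusted p = 1.88e-06), rose from 1 to 28 dpn (0.63 ± 0.19, adjusted p = 0.0219) and fell by 188 dpn (-1.13 ± 0.19, adjusted p = 0.000272), although animal 2 of 28 dpn, at 469, lay below every newborn. PCLAF fell by 1 dpn (-2.42 ± 0.56, adjusted p = 0.00198) and by 188 dpn (at least 2.8-fold, adjusted p = 0.00057), and its difference of 1.09 ± 0.56, adjusted p = 0.182 between 1 and 28 dpn did not pass.

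The enzymes that make DNA precursors were all lower at 188 dpn than at 94 dpc, TYMS only by its brightest probe set. Ribonucleotide reductase has a large subunit, RRM1, and a small subunit, RRM2, that is made in S phase. RRM1 spanned 1328 to 1904 (median 1623) at 94 dpc, 585 to 1859 (1126) at 1 dpn, 709.8 to 1273 (1054) at 28 dpn and 437 to 825 (625.1) at 188 dpn. RRM2 ranged over 209 to 455 (median 268) at 94 dpc, 6.13 to 125 (90.1) at 1 dpn, 69.0 to 199 (175) at 28 dpn and 6.63 to 64.7 (22.6) at 188 dpn. Thymidylate synthase makes the thymidine nucleotide: TYMS spanned 124 to 275 (median 221) at 94 dpc, 3.75 to 81.3 (45.0) at 1 dpn, 80.3 to 169 (138) at 28 dpn and 16.4 to 52.7 (48.1) at 188 dpn. RRM1 overlapped between fetus and newborn and differed by -0.55 ± 0.23, adjusted p = 0.0761, whereas no newborn reached a fetus for RRM2 (at least 3.94-fold lower, adjusted p = 0.0101) or TYMS (at least 2.76-fold lower, adjusted p = 0.000457). RRM1 was also higher in the newborns of low 5′ signal, at 1339, 1859 and 1521, than in the other newborns, at 585, 914 and 904, and without the former its fall by 1 dpn passed (-1.05, adjusted p = 0.00163). TYMS rose from 1 to 28 dpn (at least 1.65-fold, adjusted p = 0.00727), and the difference for RRM2 did not pass (adjusted p = 0.163). By 188 dpn RRM2 fell to under the Tag level in all 6 animals (at least 2.06-fold, adjusted p = 0.00363), RRM1 fell by 0.70 on the log2 scale (adjusted p = 0.0463) and TYMS did not pass (adjusted p = 0.0683), although its ages did not overlap. The RRM1 call at this step was lost in 14 of the 24 fits that leave out 1 animal and with centring on the median (-0.43, adjusted p = 0.26).

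CDK2, the kinase that starts DNA synthesis with cyclins E and A, fell by 1 dpn and again by 188 dpn. CDK2 spanned 494 to 570.0 (median 558) at 94 dpc, 227 to 453 (266) at 1 dpn, 348 to 579 (417) at 28 dpn and 163 to 258 (223) at 188 dpn. The newborns and the pigs of 188 dpn lay below all fetuses, and the 28 dpn range overlapped that of the fetuses. CDK2 fell by 1 dpn (-0.88 ± 0.18, adjusted p = 0.000582), was higher at 28 dpn (0.50 ± 0.18, adjusted p = 0.0458) and fell by 188 dpn (-1.03 ± 0.18, adjusted p = 0.000321). With the mean of its 3 probe sets the middle difference was 0.04, adjusted p = 0.957. The middle call was lost in 16 of the 24 fits that leave out 1 animal, with adjusted p-values of 0.0512 to 0.117.

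MYBL2, a transcription factor that switches on genes of S phase and mitosis, ended under background. MYBL2 spanned 496 to 674 (median 575) at 94 dpc, 90.4 to 286 (172) at 1 dpn, 85.8 to 221 (169.6) at 28 dpn and 4.89 to 36.3 (5.47) at 188 dpn. The newborn and 28 dpn ranges overlapped, lay wholly below the fetal range and wholly above that of 188 dpn. MYBL2 fell by 1 dpn (-1.84 ± 0.40, adjusted p = 0.0011), differed by -0.06 ± 0.40, adjusted p = 0.94 between 1 and 28 dpn, and fell at least 2.1-fold by 188 dpn (adjusted p = 4.22e-07).

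**Figure D2:**
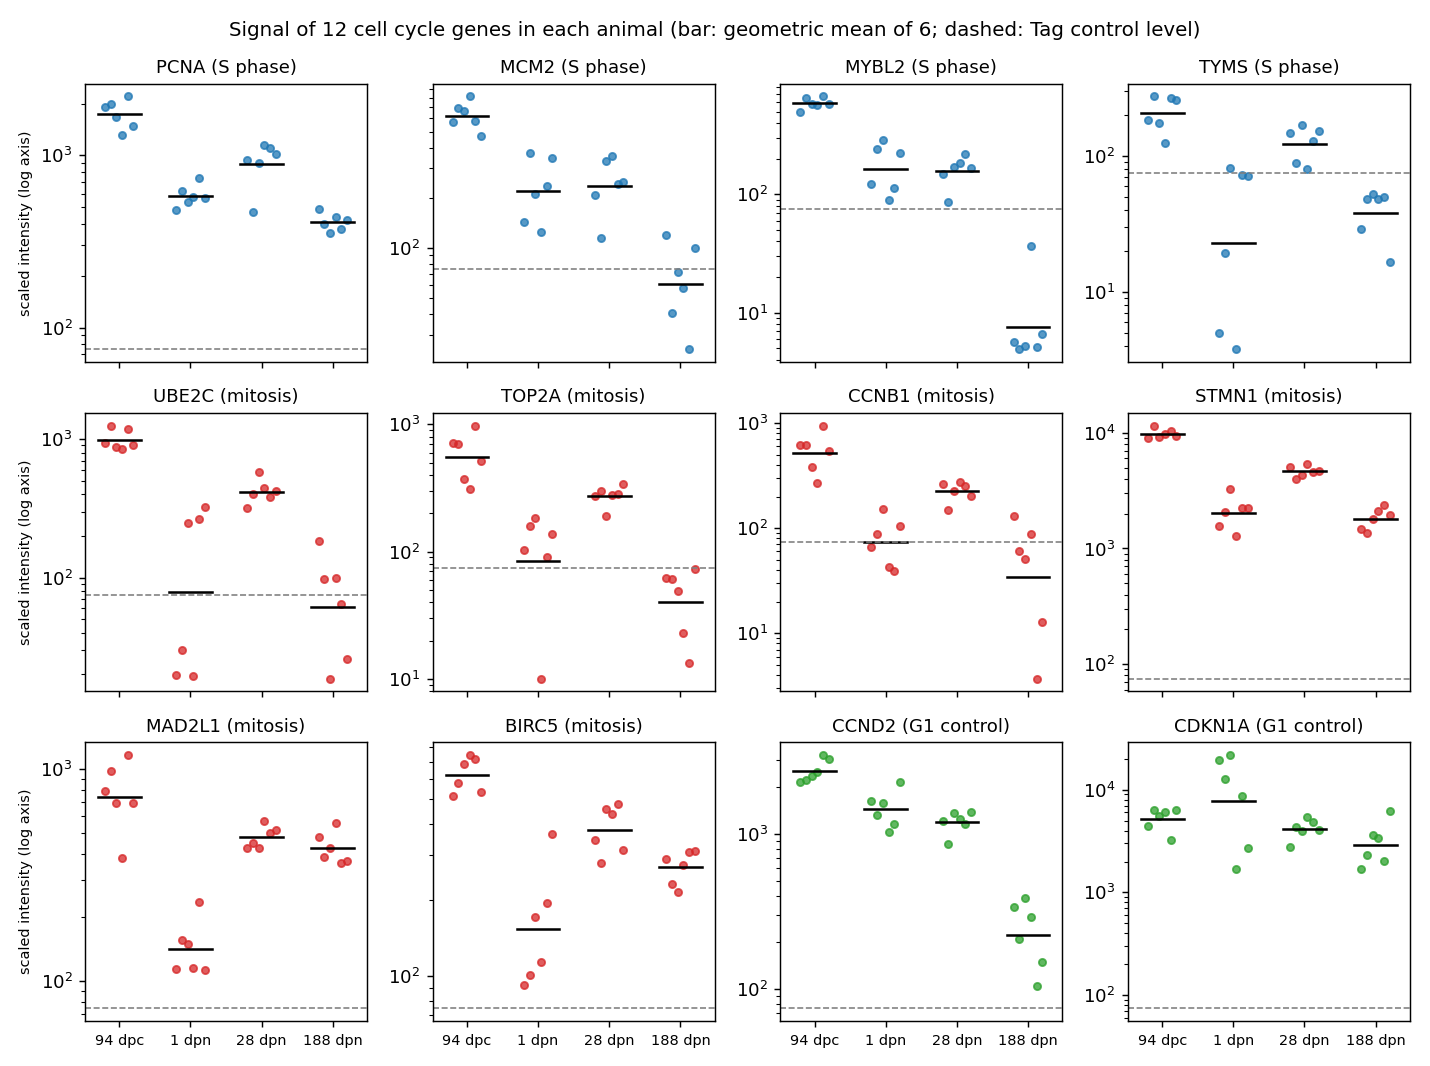
Scaled signal on a log axis for 4 S phase genes (blue), 6 mitosis genes (red) and 2 G1 genes (green), 1 point per animal in 4 stages of 6, with bars at the geometric mean and a dashed line at the Tag level of 74.7. STMN1, TOP2A and MAD2L1 show all 6 animals of 28 dpn above all 6 newborns, and the newborn CDKN1A points spread from 1691 to 21729.7.

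Of the mitosis genes, the cyclins A2, B1 and B2, which activate the mitotic kinases, fell in every newborn to below every fetus. CCNB1 spanned 271 to 946 (median 579.9) at 94 dpc, 39.2 to 152 (77.9) at 1 dpn, 151 to 275 (239) at 28 dpn and 3.68 to 129 (56.1) at 188 dpn. CCNB2 ranged over 127 to 424 (median 284) at 94 dpc, 29.1 to 121 (74.2) at 1 dpn, 97.5 to 133 (124) at 28 dpn and 2.53 to 49.5 (24.3) at 188 dpn. CCNA2 lay at 82.7 to 162 (median 106) at 94 dpc, 9.28 to 57.7 (28.5) at 1 dpn, 24.1 to 109.7 (66.5) at 28 dpn and 12.2 to 56.8 (32.0) at 188 dpn. For both B cyclins the 28 dpn animals lay above all pigs of 188 dpn and overlapped fetuses and newborns alike. CCNB1 fell at least 7-fold by 1 dpn (adjusted p = 0.00118) and at least 3-fold by 188 dpn (adjusted p = 0.00396), and did not pass between 1 and 28 dpn (adjusted p = 0.067). CCNB2 fell at least 3.39-fold by 1 dpn (adjusted p = 0.0167), a call lost without the 3 newborn arrays of low 5′ signal (adjusted p = 0.059), and at least 1.61-fold by 188 dpn (adjusted p = 0.000917). CCNA2 fell at least 1.44-fold by 1 dpn (adjusted p = 0.00065). It was called higher at 28 dpn (adjusted p = 0.0305), but both stage means lie under the Tag level, so no fold is given, and with values set to that level the difference was 0.14, adjusted p = 0.462.

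TOP2A, the topoisomerase that untangles sister chromosomes, and the spindle proteins CENPF and NUSAP1 ended lowest at 188 dpn. TOP2A spanned 311 to 975 (median 608) at 94 dpc, 10.0 to 185 (121) at 1 dpn, 192 to 339 (279.7) at 28 dpn and 13.4 to 72.4 (55.2) at 188 dpn. CENPF ranged over 165 to 529.8 (median 322) at 94 dpc, 10.2 to 138 (115) at 1 dpn, 56.5 to 188 (117) at 28 dpn and 8.24 to 56.3 (19.3) at 188 dpn. NUSAP1 lay at 343 to 1181 (median 787) at 94 dpc, 114 to 246 (186) at 1 dpn, 179 to 405 (258) at 28 dpn and 19.8 to 119 (75.2) at 188 dpn. All 3 genes had no overlap between fetus and newborn or between 28 and 188 dpn, and TOP2A alone of them had no overlap between 1 and 28 dpn. TOP2A fell by 1 dpn (-2.71 ± 0.55, adjusted p = 0.000615), rose by 28 dpn (1.68 ± 0.55, adjusted p = 0.0314) and fell at least 3.66-fold by 188 dpn (adjusted p = 0.00124). The rise was lost when any of animals 1, 2, 4, 5 or 6 of 28 dpn was left out, with adjusted p-values of 0.0504 to 0.0591 and differences of 1.62 to 1.68. CENPF and NUSAP1 fell by 1 dpn (-1.94 ± 0.55 and -2.07 ± 0.36, adjusted p = 0.00947 and 0.000152) and by 188 dpn (at least 1.43-fold and at least 3.49-fold, adjusted p = 0.00318 and 0.000781). With values under the Tag level set to it, the later fall of CENPF was -0.58, adjusted p = 0.125.

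STMN1, which destabilises microtubules, and MAD2L1, the checkpoint protein that holds back chromosome separation, separated the newborns from both the fetuses and the 28 dpn pigs. STMN1 spanned 9095 to 11519.8 (median 9529) at 94 dpc, 1282 to 3244 (2138) at 1 dpn, 3991 to 5328 (4615) at 28 dpn and 1354 to 2367 (1876) at 188 dpn. MAD2L1 ranged over 382 to 1165 (median 740.1) at 94 dpc, 113 to 235 (133) at 1 dpn, 424 to 570.5 (476) at 28 dpn and 361 to 557 (405) at 188 dpn. For both genes every newborn lay below every fetus and below every animal of 28 dpn. STMN1 fell by 1 dpn (-2.29 ± 0.19, adjusted p = 1.2e-08), rose by 28 dpn (1.20 ± 0.19, adjusted p = 8.45e-05) and fell by 188 dpn (-1.36 ± 0.19, adjusted p = 2.99e-05). MAD2L1 fell (-2.38 ± 0.23, adjusted p = 8.34e-08) and rose likewise (1.75 ± 0.23, adjusted p = 1.17e-05), but at 188 dpn it differed from 28 dpn by -0.18 ± 0.23, adjusted p = 0.691, and every pig of 188 dpn stayed above every newborn. Its difference between 188 dpn and 94 dpc, -0.81 ± 0.23, adjusted p = 0.006, was -0.46, adjusted p = 0.132 with quantile normalization and -0.27, adjusted p = 0.349 with centring on the median.

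BIRC5 (survivin), a subunit of the complex that corrects spindle attachment, fell by 1 dpn and rose by 28 dpn. BIRC5 spanned 512 to 745 (median 633) at 94 dpc, 92.3 to 365 (142) at 1 dpn, 280.0 to 477 (391) at 28 dpn and 215 to 312 (282) at 188 dpn. Fetuses lay above all later animals, and the newborn and 28 dpn ranges overlapped through animal 6 of 1 dpn, at 365. BIRC5 fell by 1 dpn (-2.02 ± 0.26, adjusted p = 3.7e-06), rose by 28 dpn (1.30 ± 0.26, adjusted p = 0.000933) and differed by -0.49 ± 0.26, adjusted p = 0.234 at 188 dpn.

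Of the proteins that end mitosis, CDC20 activates the ubiquitin ligase that releases the chromosomes and UBE2C is its ubiquitin carrier. UBE2C spanned 847 to 1251 (median 923) at 94 dpc, 19.4 to 324 (139) at 1 dpn, 320.4 to 580.4 (411) at 28 dpn and 18.6 to 183 (81.0) at 188 dpn. CDC20 ranged over 298 to 537 (median 392) at 94 dpc, 38.6 to 376 (86.1) at 1 dpn, 86.7 to 169 (132) at 28 dpn and 7.19 to 54.2 (26.9) at 188 dpn. Newborn UBE2C split into animals 1, 2 and 4 at 19.9, 30.2 and 19.4 and animals 3, 5 and 6 at 248, 266 and 324, and all 6 lay below the fetuses. UBE2C fell by 1 dpn (-3.64 ± 0.66, adjusted p = 0.000227), rose by 28 dpn (2.40 ± 0.66, adjusted p = 0.0123) and fell at least 5.6-fold by 188 dpn (adjusted p = 0.00608), a call lost with the mean of its 2 probe sets. The rise was 1.82, adjusted p = 0.103 without the newborn arrays of low 5′ signal. CDC20 fell by 1 dpn (-2.02 ± 0.46, adjusted p = 0.00182) and at least 1.67-fold by 188 dpn (adjusted p = 0.00104), while 1 and 28 dpn differed by 0.35 ± 0.46, adjusted p = 0.657. With values under the Tag level set to it, the later fall of CDC20 was -0.74, adjusted p = 0.109.

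The mitotic kinases Aurora A (AURKA) and Aurora B (AURKB) fell by 1 dpn and, at the probe sets used, did not pass any later step. AURKA spanned 157 to 259 (median 213) at 94 dpc, 6.75 to 105 (55.4) at 1 dpn, 55.2 to 120.4 (78.3) at 28 dpn and 3.74 to 110.3 (59.6) at 188 dpn. AURKB ranged over 311 to 526 (median 365) at 94 dpc, 16.9 to 157 (53.4) at 1 dpn, 20.2 to 169 (47.9) at 28 dpn and 17.8 to 143 (64.2) at 188 dpn. The 3 postnatal stages overlapped each other for both genes and lay below all fetuses. By 1 dpn AURKA fell at least 2.75-fold (adjusted p = 0.00815) and AURKB at least 5.07-fold (adjusted p = 0.00063). With the mean of its 2 probe sets, AURKA was called higher at 28 than at 1 dpn (1.30, adjusted p = 0.0245). Its second probe set lay under the Tag level at both of these ages. SKA1, which couples chromosomes to microtubules, was above the Tag level only as a fetal mean: SKA1 spanned 71.0 to 152 (median 92.9) at 94 dpc, 2.88 to 22.8 (5.90) at 1 dpn, 4.47 to 64.2 (32.3) at 28 dpn and 3.50 to 14.5 (5.35) at 188 dpn. It fell at least 1.32-fold by 1 dpn (adjusted p = 3.22e-05), and its later calls, higher at 28 dpn (adjusted p = 0.0313) and lower at 188 dpn (adjusted p = 0.0193), the latter lost without animal 1 of 28 dpn (-1.76, adjusted p = 0.0544), compare values under the Tag level and are 0 on the log2 scale when those are set to it. PLK1, a mitotic kinase, had stage means of 146, 73.3, 108 and 51.5 and KIF20A, a motor of late mitosis, 22.2, 18.4, 17.0 and 13.5, and neither passed any of the 4 comparisons. For PLK1, however, every pig of 188 dpn lay below every fetus (-1.50 ± 0.62, adjusted p = 0.0573). That difference passed in 9 of 37 alternative fits, among them the fit without animal 1 of 1 dpn (adjusted p = 0.00181).

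Most of the division genes were lower in the newborn than in the fetus. Between 94 dpc and 1 dpn, 24 of the 30 genes were lower and 0 higher by limma at an adjusted p of at most 0.05 (26 and 0 at an unadjusted p under 0.05), where 20.8% of all probe sets were lower and 10.1% higher. Over all genes at their brightest probe set these shares were 20.7% and 17.1%. The 24 were 8 of 11 S phase genes, 14 of 16 mitosis genes and, of G1, CCND2 and the inhibitor gene CDKN1B. In 19 genes all 6 newborns lay below all 6 fetuses, against 8.66% of all probe sets, and in 0 above them, against 5.05%. The median difference was -1.50 for S phase and -2.18 for mitosis, beside -0.15 for all probe sets. With values under the Tag level set to it, the medians were -1.44 and -1.89. Without the 3 newborn arrays of low 5′ signal 22 were lower: CCND2, CDKN1B and CCNB2 were lost and RRM1 was gained. Centring each array on its median left 22 of the genes lower and 0 higher, while all probe sets then split into 2831 lower and 4107 higher, against 4980 and 2429 as deposited. With quantile normalization that split was 3496 and 3188.

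**Figure D3:**
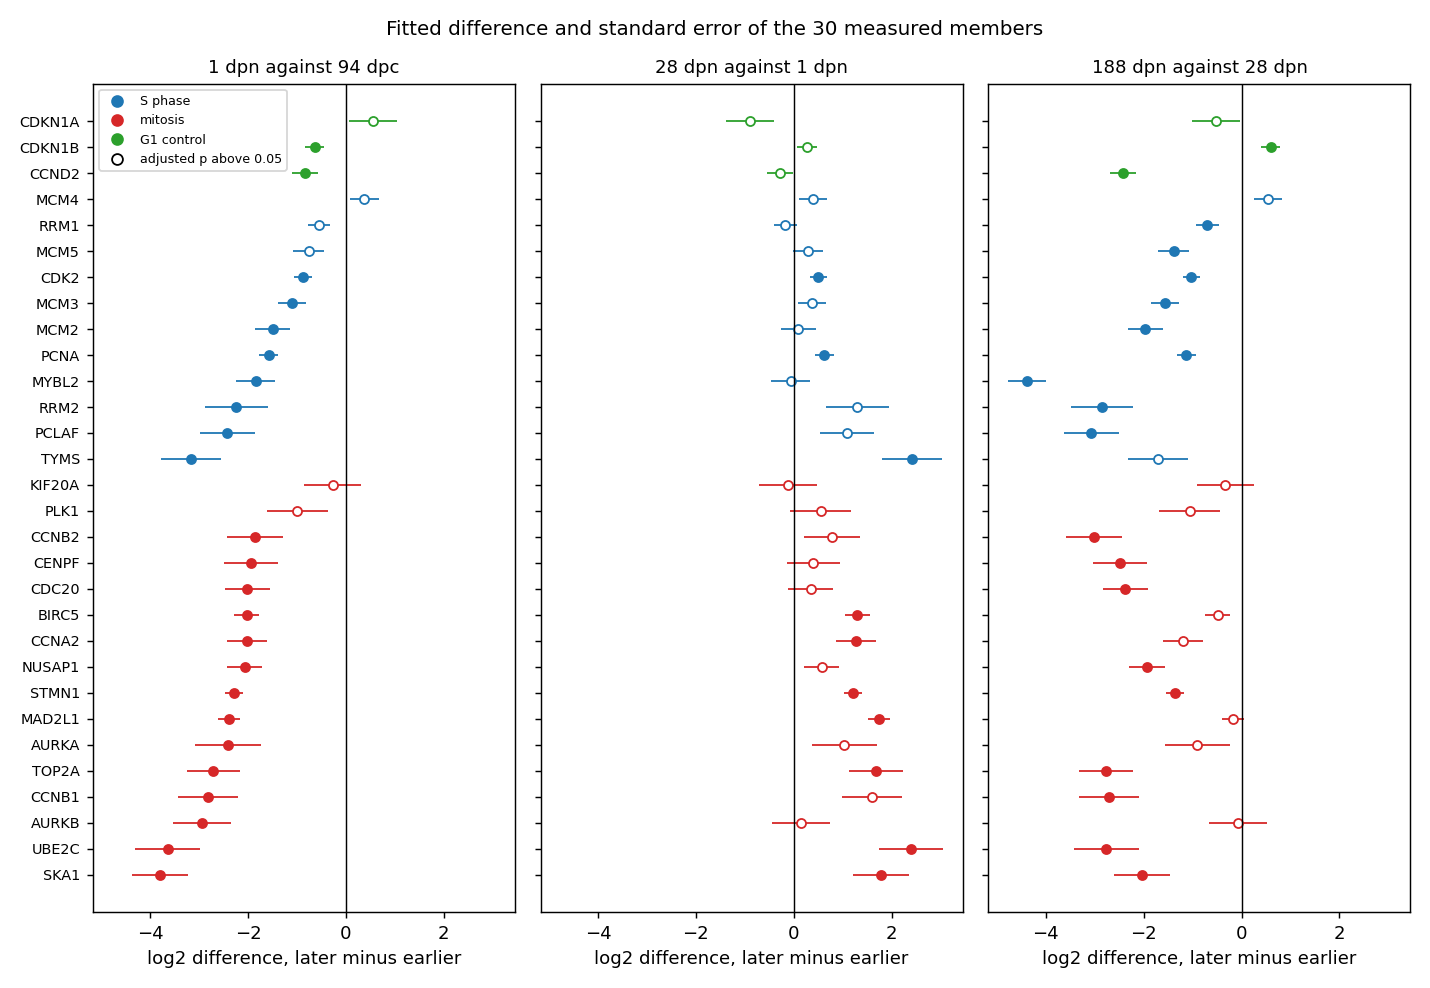
Fitted log2 difference with its standard error for the 30 measured genes in the 3 comparisons of consecutive stages, coloured by role and filled where the adjusted p is at most 0.05. Filled points number 24 on the left, all below 0, 10 in the middle, all above 0, and 20 on the right, where CDKN1B is the only filled point above 0.

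From 1 to 28 dpn a subset of the genes rose again. Of the 30, 10 were higher and 0 lower (limma, 11 and 0 at an unadjusted p under 0.05), where 11.6% of all probe sets were higher and 9.1% lower. Over all genes at their brightest probe set these shares were 13.3% and 13.4%. In this fit of all arrays, the share of division genes called higher, 10 of 30, stood above the background on either count. The 10 were CDK2, PCNA and TYMS of S phase and UBE2C, STMN1, SKA1, CCNA2, TOP2A, MAD2L1 and BIRC5 of mitosis. STMN1, TOP2A and MAD2L1 had all 6 animals of 28 dpn above all newborns, against 5.59% of all probe sets, and no gene had them all below, against 3.81%. The median difference was 0.39 for S phase, 1.12 for mitosis and 0.02 for all probe sets. With values under the Tag level set to it, the medians were 0.351 and 0.305. In 14 of the 30 genes every animal of 28 dpn still lay below every fetus, and in 0 above, against 13.8% and 8.17% of all probe sets.

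The size of this set depends on the arrays used. Without the newborn arrays of low 5′ signal 5 genes rose, namely TYMS, STMN1, TOP2A, MAD2L1 and BIRC5. CDK2 (0.26, adjusted p = 0.463), PCNA (0.53, adjusted p = 0.157), SKA1 and CCNA2 were lost with UBE2C. Of the 24 fits that leave out 1 animal, PCNA lost its call in 2, without animal 4 or 5 of 28 dpn, CCNA2 in 7 and SKA1 in 8. Leaving out animal 4 or 5 of 28 dpn left 5 genes, and leaving out animal 1 or 6 left 6. STMN1, MAD2L1 and BIRC5 kept their call in every alternative run. A fit of the 2 stages alone also called 5, with PCLAF and CCNB1 beside STMN1, MAD2L1 and BIRC5.

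**Figure D4:**
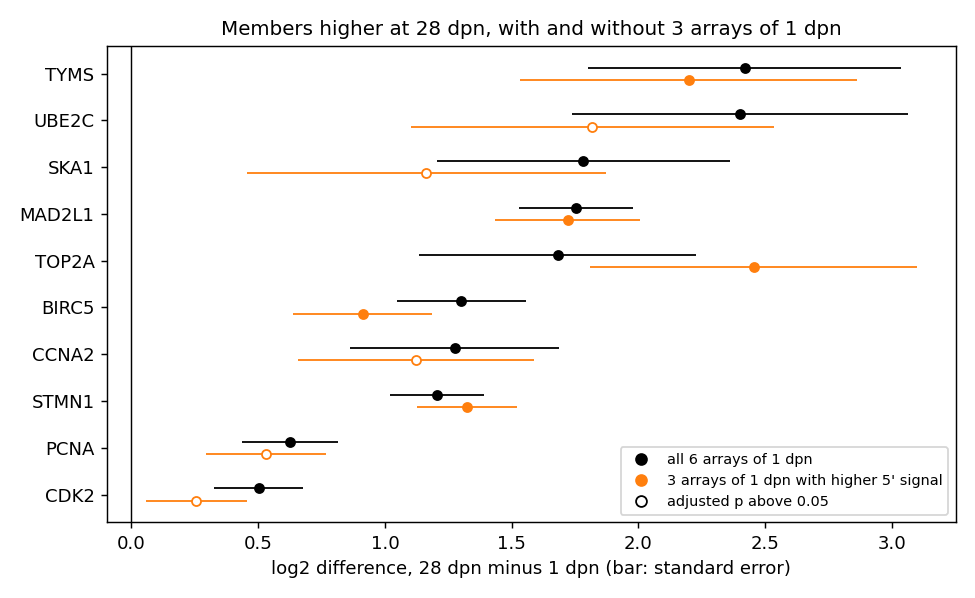
Log2 difference between 28 and 1 dpn with its standard error for the 10 genes called higher, with all 6 newborn arrays (black) and with only the 3 of higher 5′ signal (orange), open where the adjusted p is above 0.05. All 10 differences are above 0 in both fits, and TYMS, MAD2L1, TOP2A, BIRC5 and STMN1 keep filled points in both.

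Most of the division genes were lower again by 188 dpn. Of the 30, 19 were lower than at 28 dpn and 1 was higher, where 10.5% of all probe sets were lower and 4.12% higher, and 14.3% and 6.16% of genes at their brightest probe set. The lower genes were 9 of 11 of S phase, 9 of 16 of mitosis and CCND2, and the higher gene was CDKN1B. In 15 of the genes every pig of 188 dpn lay below every animal of 28 dpn, against 7.84% of all probe sets, and CDKN1B lay wholly above, against 4.41%. The median difference was -1.57 for S phase and -1.64 for mitosis, beside -0.18 for all probe sets. Of these genes 7 of 11 and 13 of 16 had a 188 dpn mean under the Tag level, and with values under it set to it the medians were -1.07 and -0.557. Without the 3 arrays of high albumin 16 were lower and 0 higher (limma), with RRM1 (-0.83, adjusted p = 0.0904), MCM5 and SKA1 lost. All probe sets split into 2511 lower and 987 higher as deposited, 1572 and 1138 with quantile normalization and 1224 and 2076 with centring on the median, under which 17 and 18 of the genes were lower.

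Over the whole span, 25 of the 30 genes were lower at 188 dpn than at 94 dpc and 1 was higher, where 27.4% of all probe sets were lower and 12.5% higher, and 30.2% and 19.9% of genes at their brightest probe set. This comparison uses the same arrays as the steps above and is no separate evidence. In 25 genes every pig of 188 dpn lay below every fetus, against 19.5% of all probe sets, and in 0 above, against 9.58%. The median difference was -2.30 for S phase, -3.15 for mitosis and -0.29 for all probe sets. With values under the Tag level set to it, the medians were -1.98 and -1.88. The gene called higher was MCM4, under the Tag level at both ages, and with the mean of its 2 probe sets the difference was -0.41, adjusted p = 0.526. Against the newborn, 3 genes lay wholly lower at 188 dpn (CCND2, MYBL2 and MCM2) and MAD2L1 lay wholly higher, against 9.5% and 7.25% of all probe sets. The splits of all probe sets were 6558 lower and 2990 higher as deposited, 4402 and 4212 with quantile normalization and 3647 and 5664 with centring on the median.

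Counted array by array, the genes under the Tag level separated the oldest pigs from the rest. Of the 30 genes, 1 to 3 lay under it in the fetuses, 4 to 13 in the newborns, 4 to 8 at 28 dpn and 14 to 19 at 188 dpn. The pigs of 188 dpn did not overlap any other stage, and the newborns spread most. Over all probe sets the share under the level was 31.8 to 34.7% in fetuses, 33.2 to 37% in newborns, 34.2 to 35.9% in the 28 dpn pigs and 37.2 to 41.8% in the 188 dpn pigs.

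**Figure D5:**
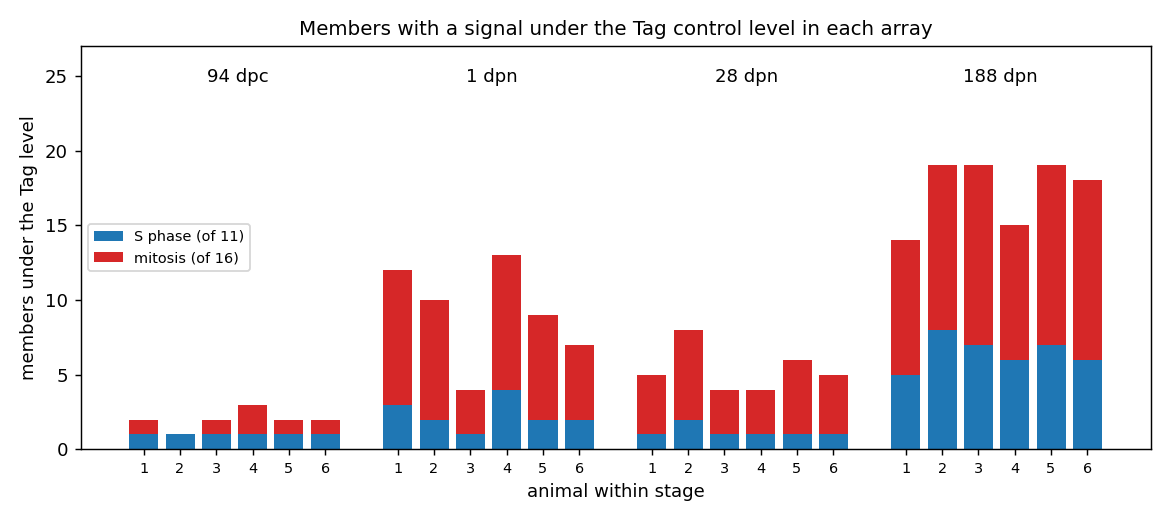
Number of S phase genes (blue, of 11) and mitosis genes (red, of 16) with a signal under the Tag level in each of the 24 arrays, by stage and animal. Bars reach 1 to 3 at 94 dpc, 4 to 13 at 1 dpn, 4 to 8 at 28 dpn and 14 to 19 at 188 dpn.

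Some genes have further probe sets, and these do not all repeat the pattern. For 11 of the 30 genes there were 15 such probe sets, 7 of them under the Tag level in all 4 stage means. By 1 dpn 11 of the 15 had the sign of the probe set used, and all 4 that passed did. From 1 to 28 dpn 9 did, and 2 passed by limma. These were a fall for MYBL2 (-2.07, adjusted p = 0.0148), between 2 means under the Tag level, and a rise for CDKN1B (2.03, adjusted p = 0.00158). The probe sets used for these 2 genes had the same sign but did not pass (-0.06, adjusted p = 0.94 and 0.27, adjusted p = 0.368). The second probe sets of AURKA and NUSAP1 ran in the same direction as the first in all 4 comparisons. Those of UBE2C and TYMS lay under the Tag level at all ages, and with the mean of all probe sets their rises to 28 dpn lost their call (adjusted p = 0.163 and adjusted p = 0.0777), as did the fall of UBE2C from 28 to 188 dpn (adjusted p = 0.0743) and that of TYMS from 94 dpc to 188 dpn (adjusted p = 0.12). The falls of MYBL2 (-1.13, adjusted p = 0.0512), MCM2 (-0.51, adjusted p = 0.0996) and CDK2 (-0.49, adjusted p = 0.257) by 1 dpn also lost their call with that mean.

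Other cell cycle genes were read from 3 longer lists, of which 84 of 173 genes were on the array. By 1 dpn 42 were lower and 2 higher, from 1 to 28 dpn 4 lower and 16 higher, and from 28 to 188 dpn 17 lower and 4 higher. The shares over all genes at their brightest probe set were 20.7% lower and 17.1% higher at the first step, 13.4% and 13.3% at the second and 14.3% and 6.16% at the third. Of 31 other replication genes 16 were lower at 1 dpn and 0 higher by limma (18 and 0 at an unadjusted p under 0.05), with a median difference of -0.82. Of 26 other mitosis genes 14 were lower and 0 higher (15 and 1 unadjusted), with a median of -1.34. From 28 to 188 dpn these lists had 5 lower and 1 higher, and 10 lower and 0 higher (13 and 0 unadjusted). The count of 5 among 31 replication genes lies near the share of all genes. RACGAP1, which acts when the daughter cells separate, fell by 1 dpn from 1054 to 137 (-2.94 ± 0.23, adjusted p = 8.99e-09) and rose by 28 dpn to 395 (1.52 ± 0.23, adjusted p = 7.86e-05). CKS2, a subunit of the cyclin-dependent kinases, rose by 28 dpn from 296 to 843 (1.51 ± 0.26, adjusted p = 0.000265). At that step 4 of the other mitosis genes were higher and 1, CDKN3, was lower (-2.26 ± 0.28, adjusted p = 9.29e-06). The mitotic kinase genes MELK and NEK2 and the kinetochore gene NUF2 fell by 1 dpn to under the Tag level, by at least 2.39-fold, 3.35-fold and 1.51-fold (adjusted p = 0.00113, 0.0128 and 0.00364).

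By 188 dpn the origin recognition gene ORC1 fell from 100.1 to 13.7 (at least 1.34-fold, adjusted p = 0.000123). NEK2, the histone chaperone gene ASF1B and the polymerase gene POLE2 also fell under the Tag level, by at least 2.31-fold, 1.32-fold and 1.12-fold (adjusted p = 0.0208, 0.0012 and 0.00905), while CENPH was under it at both ages. Over the whole span the chromatin gene HMGB2 fell from 3466 to 262 (-3.73 ± 0.29, adjusted p = 7.13e-10). DLGAP5, ORC1, GINS3 and SPAG5 fell from above to under the Tag level over that span, by at least 2.44-fold, 2.62-fold, 2.18-fold and 2.84-fold. The replication genes GINS4 and POLD4 instead fell between 1 and 28 dpn, from 238 to 123 (-0.95 ± 0.25, adjusted p = 0.00791) and from 1373 to 916 (-0.58 ± 0.18, adjusted p = 0.0228), and POLD4 rose by 188 dpn from 916 to 1809 (0.98 ± 0.18, adjusted p = 0.000571).

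Markers of other cell types also differed between the stages. The summed signal of 6 endothelial markers was 6420.4 to 11331 in fetuses, 3646 to 6045 in newborns, 5818 to 8809.7 in the 28 dpn pigs and 2649 to 3543 in the 188 dpn pigs, with stage means of 6, 5, 5 and 4 of the 6 above the Tag level. By 1 dpn 4 of the 6 fell, by 28 dpn 4 rose and by 188 dpn 3 fell, by limma at the same threshold and beside the shares of all genes given above. VWF passed none of these steps and was higher at 188 dpn than at 94 dpc, when the other 5 were lower. The summed signal of 5 of 8 erythroid markers was 1588 to 2508 in fetuses, 843 to 1868 in newborns, 1377 to 3194 in the 28 dpn pigs and 528 to 1375 in the 188 dpn pigs, and that of 4 of 6 fibroblast markers 31394 to 36747 in fetuses, 16244 to 44646 in newborns, 13758 to 22049.8 in the 28 dpn pigs and 10788 to 17385 in the 188 dpn pigs. Of the leukocyte list 6 of 8 were on the array, with 3 stage means above the Tag level in each stage and a sum of 552 to 1685 in fetuses, 557 to 952 in newborns, 499.7 to 991 in the 28 dpn pigs and 420.0 to 854 in the 188 dpn pigs, and 0 passed any comparison by limma (0 at an unadjusted p under 0.05). PTPRC, which marks all leukocytes, had medians of 34.5, 61.4, 50.3 and 40.1, under the Tag level at every stage. Of the muscle precursor genes, MYF5 had medians of 677, 139, 102 and 67.0 and MYOD1 medians of 1856, 1336, 925 and 294 in the order of the ages, while MYF6 had medians of 1308, 489, 1313 and 5142 and DES medians of 16318, 18892, 20817 and 25690.4. From 94 dpc to 188 dpn MYF5 and MYOD1 were lower, and MYF6 and DES higher. The summed signal of 4 of 6 muscle precursor and early differentiation genes, which are also made in fibres, was 15492 to 24353 in fetuses, 17611 to 28701 in newborns, 20369 to 25407 in the 28 dpn pigs and 29514 to 38324 in the 188 dpn pigs, and that of 4 of 6 adipocyte markers 3840.3 to 6292 in fetuses, 6380.1 to 23994 in newborns, 3924 to 8893 in the 28 dpn pigs and 2572 to 4290.4 in the 188 dpn pigs. The part of these cell types in the division genes was not tested.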

How the data were processed

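RNA of 24 animals (0.5 µg each) was labelled and hybridised to Affymetrix Porcine Genome arrays, per the labels. The deposited values are linear signal intensities, which the authors made with GCOS 1.1.1, per the submitters' processing notes. How arrays were scaled and probes summarised is not given in the sources used here. The mean intensity of each array with 2% trimmed at each end was 498.3 to 499.4, so the deposited values share 1 scaling target. Of 24118 probe sets, 183 controls were left out and 23935 tested without a filter. Symbols come from the platform annotation of 2016: 10069 probe sets have 1 symbol, 198 several and 13668 none. No genome coordinates or sequences were used.

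The log2 of each intensity, with no constant added, entered 1 limma model of the 4 stages (limma 3.58.1, R 4.3.3, functions lmFit and eBayes), which leaves 20 residual degrees of freedom. Tests were two-sided, and Benjamini-Hochberg adjustment covered every probe set, at a threshold of 0.05. The procedure was tested on simulated data. Plots were drawn in matplotlib 3.10.9 under Python 3.11.15. The genes, lists and tests were chosen with earlier results of these data known. Ranges are given for genes past the threshold in a step between consecutive stages with a stage mean above the Tag level, and for the brightest gene of each role (in G1, CDKN1A). Up to 5 other cell cycle genes per direction and comparison were named by the largest difference. Alternatives were other scalings, pseudocounts, a floor, a filter, probe set means, fits of 2 stages, variance models, a stricter threshold and animals left out. The number of arrays, 6 per stage, limits the precision.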

Additional observations from a re-analysis of the deposited data

Results flagged for a closer look

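In 15 of 120 sets of 6 animals, 1 animal lay far from the others by Dixon's criterion on the log2 signal, where chance gives about 1 in 20, or 6. Among the newborns these were 6.13 for RRM2 in animal 4 of 1 dpn (nearest other 82.5), 10.0 for TOP2A in animal 4 of 1 dpn (nearest other 89.9), 10.2 for CENPF in animal 5 of 1 dpn (nearest other 109.5) and 5.40 for PLK1 in animal 1 of 1 dpn (nearest other 65.8), all the lowest of their stage. At 28 dpn animal 2 was the lowest for 3 genes of DNA synthesis and mitosis, with 469 for PCNA in animal 2 of 28 dpn (nearest other 899.8), 69.0 for RRM2 in animal 2 of 28 dpn (nearest other 166) and 24.1 for CCNA2 in animal 2 of 28 dpn (nearest other 64.2). Animal 4 of 28 dpn was the lowest for MCM4 at 34.6 and the highest for KIF20A at 84.4. At 188 dpn animal 4 was the highest for MYBL2 at 36.3 (nearest other 6.66) and for MCM4 at 168 (nearest other 56.3). In the same stage KIF20A was highest in animal 3 at 46.1, AURKA lowest in animal 5 at 3.74, and NUSAP1 lowest in animal 6 at 19.8. At 94 dpc CDK2 was lowest in animal 3 at 494 (nearest other 549). Of the 15 flagged values, only CDK2 at 494, PCNA at 469, MCM4 at 168 and KIF20A at 84.4 lay above the Tag level. The other flagged values lay under it, are not above background and are not read as a result about those animals. The part of background signal in the count of 15 was not tested.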

How the results depend on the processing

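Of 80 comparisons in which a gene passed, 56 kept their call in every alternative run and 24 lost it in at least 1; of 40 that did not pass, 13 passed in at least 1. The counts lower at 1 dpn, at 188 dpn against 28 dpn and over the whole span stayed within 1.5 times of 24, 19 and 25 in every alternative run, at 24 to 25, 17 to 22 and 25 to 26 with animals left out in turn. The 10 genes higher at 28 dpn than at 1 dpn became 5 in a fit of the 2 stages alone, 4 at an adjusted p of 0.01 and 5 without the newborn arrays of low 5′ signal, and 5 to 11 with animals left out. The lower count there was 0 to 1 and the count higher at 1 dpn than at 94 dpc was 0 to 0. The share of all genes called higher at 28 dpn in these runs is not given here. The 1 gene higher at 188 than at 28 dpn (CDKN1B) became 0 with quantile normalization, with the mean of probe sets, at an adjusted p of 0.01 and without the arrays of high albumin, and 0 to 1 with animals left out. The 1 gene higher at 188 dpn than at 94 dpc (MCM4) became 2 with centring on the median and 0 with values set to the Tag level, with a filter on the dimmest 30% and by averaging probe sets, where MCM4 turned to -0.41 (adjusted p = 0.526). The number of genes that differed between stages was 27 to 28 with animals left out. The causes were not tested. Leaving out the arrays of low 5′ signal, those of high albumin or animal 5 of 94 dpc was chosen after the data were seen. No paired analysis was possible because animal numbers follow only the order of the samples. A signal near background limits the folds of the genes under the Tag level to lower bounds.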

Other observations

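Other genes of G1 and growth arrest, 27 of 48 listed, moved in both directions. By 1 dpn 12 were lower and 2 higher, from 1 to 28 dpn 1 was lower and 9 higher, and from 28 to 188 dpn 2 were lower and 3 higher, by limma at an adjusted p of at most 0.05. From 94 dpc to 188 dpn 7 were lower and 5 higher, with a median difference of -0.07. Over all genes at their brightest probe set, 20.7% were lower and 17.1% higher by 1 dpn, and 13.4% and 13.3% from 1 to 28 dpn. From 28 to 188 dpn 14.3% were lower and 6.16% higher, and from 94 dpc to 188 dpn 30.2% and 19.9%. The counts over the whole span lie near these shares and are not read as a result about this list. The genes named next are those with the largest differences over the 3 lists of other genes together. By that rule no gene of this list is named as lower over the whole span or from 28 to 188 dpn. The named genes therefore do not show the balance of the list. CCNG1, a cyclin induced by p53, rose from 1 to 28 dpn from 3433 to 21713 (2.66 ± 0.20, adjusted p = 1.48e-08) and was at 28295 at 188 dpn. BTG2 and TOB1, antiproliferative genes of one family, were higher at 188 dpn than at 94 dpc, from 606 to 2631 (2.12 ± 0.48, adjusted p = 0.000968) and from 1259 to 4662 (1.89 ± 0.21, adjusted p = 2.23e-07). BTG2 had risen by 28 dpn from 656 to 2989 (2.19 ± 0.48, adjusted p = 0.00217). CCNG2, a relative of CCNG1, and the stress gene GADD45G rose from 28 to 188 dpn, from 294 to 876 (1.57 ± 0.30, adjusted p = 0.000892) and from 1081 to 3207 (1.57 ± 0.31, adjusted p = 0.00114). CDKN2D, an inhibitor of the cyclin D kinases, rose at the same step from 545 to 868 (0.67 ± 0.22, adjusted p = 0.0439), and was higher at 188 dpn than at 94 dpc (0.94 ± 0.22, adjusted p = 0.00144).

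Its relative CDKN2C fell by 1 dpn from 110.4 to 17.6 (at least 1.48-fold, adjusted p = 0.000496) and rose by 28 dpn from 17.6 to 151 (at least 2.02-fold, adjusted p = 0.000217). LIN37, a subunit of the complex that represses cell cycle genes in resting cells, had its highest stage mean at 1 dpn: it rose by 1 dpn from 908 to 2800.0 (1.63 ± 0.20, adjusted p = 2.29e-06) and fell by 28 dpn from 2800.0 to 888 (-1.66 ± 0.20, adjusted p = 5.07e-06). CDKN3, a phosphatase of the cyclin-dependent kinases, belongs to the list of other mitosis genes. CDKN3 had its highest stage mean at 1 dpn and fell by 28 dpn from 1216 to 254 (-2.26 ± 0.28, adjusted p = 9.29e-06). E2F3, a transcription factor of S phase genes, rose by 1 dpn from 126 to 207 (0.72 ± 0.23, adjusted p = 0.0179) and was at 239 at 188 dpn (0.93 ± 0.23, adjusted p = 0.00197 against 94 dpc).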
